A study of Mus musculus with 3 samples.

Results

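The genes described here are those whose level in the mouse melanoma cell line YUMM1.7 lay 2 or more on the log2 scale above or below both YUMM1.1 and YUMM2.1. The level was log2(FPKM + 1), where FPKM is a fragment count divided by transcript length and by library size. A difference of 2 on this scale is 4-fold in FPKM + 1. Of 25791 gene symbols in the authors' table, 11741 reached 1 FPKM in YUMM1.7, YUMM1.1 or YUMM2.1 and were compared. YUMM1.7 was higher than both other lines for 321 genes, which is 2.73% of the genes compared, and lower than both for 191 genes, or 1.63%. The rule used these same differences, so nothing is read from the counts themselves. Applied to YUMM1.1 the rule gave 68 higher and 67 lower genes, and applied to YUMM2.1 it gave 71 and 49.

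The data are 3 libraries of total RNA, 1 from each line, and the labels give the line name with no genotype, treatment or passage. YUMM lines were grown from melanomas of mice engineered to carry activated Braf and other driver lesions in melanocytes, and a line is a culture grown from such a tumor. With 1 library per line, no difference can be set against a spread between cultures, and no p-values are given. The fragments implied by the spacing of the lowest FPKM values numbered about 46.2 M in YUMM1.7, 69.0 M in YUMM1.1 and 87.3 M in YUMM2.1. At that depth 3 fragments on a 2 kb transcript correspond to 0.0325 FPKM in YUMM1.7, 0.0218 FPKM in YUMM1.1 and 0.0172 FPKM in YUMM2.1, which covers counting error only. The FPKM sums were 1827830 in YUMM1.7, 1041960 in YUMM1.1 and 693156 in YUMM2.1, so the scaling of the libraries bears on every level given here. The median difference of all genes compared was 0.02 from YUMM1.1 and 0.02 from YUMM2.1 as deposited. It became -0.62 and -1.12 when each line was rescaled to a common FPKM sum. With that rescaling 148 of the 11741 genes compared were higher and 484 lower. The list counts given below for a common FPKM sum belong beside these.

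Melanocytes arise from the neural crest, a migratory cell population of the embryo that also gives Schwann cells, the glia that wrap peripheral nerves. Sox10 is a transcription factor that both lineages depend on, and Mitf directs pigment genes below it. Melanoma cells can lose the pigment program and take on neural crest-like or mesenchymal expression, in which collagens, matrix proteins and factors of the epithelial-mesenchymal transition are active. Interferon-stimulated genes respond to type I interferon through a complex that contains Irf9 and can be active at a basal level without added interferon.

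The higher genes were mostly weak in the other lines. In bulk RNA, fewer cells of a type and less RNA per cell cannot be told apart. Their median level was 24.1 FPKM in YUMM1.7, against 0.284 FPKM in YUMM1.1 and 0.687 FPKM in YUMM2.1. Of the 321, 161 were under 1 FPKM in both other lines and 97 were at or above it in both. In 250 of them YUMM1.1 and YUMM2.1 lay within 1 of each other on the log2(FPKM + 1) scale, and in 19 they differed by 2 or more. The 161 genes under 1 FPKM in both lie within 1 of each other by construction of this scale. The 250 therefore do not measure how well YUMM1.1 and YUMM2.1 agree. Together the higher genes held 11.4% of the YUMM1.7 FPKM sum, 1.04% of the YUMM1.1 sum and 1.82% of the YUMM2.1 sum. Most of the YUMM1.7 share came from 1 symbol, the 5S ribosomal RNA Rn5s. It had 162562 of the 208232 FPKM that the higher genes summed to in YUMM1.7. The lower genes had a median of 0.407 FPKM in YUMM1.7, 18.8 FPKM in YUMM1.1 and 17.4 FPKM in YUMM2.1. Of the 191, 124 were under 1 FPKM in YUMM1.7 and 21 were listed at 0 there. The smaller difference, meaning the difference from whichever other line was nearer, had a median of 2.75 over the higher genes. Over the lower genes the median distance to the nearer line was 2.78. It reached 5 or more for 31 higher and 18 lower genes.

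**Figure D1:**
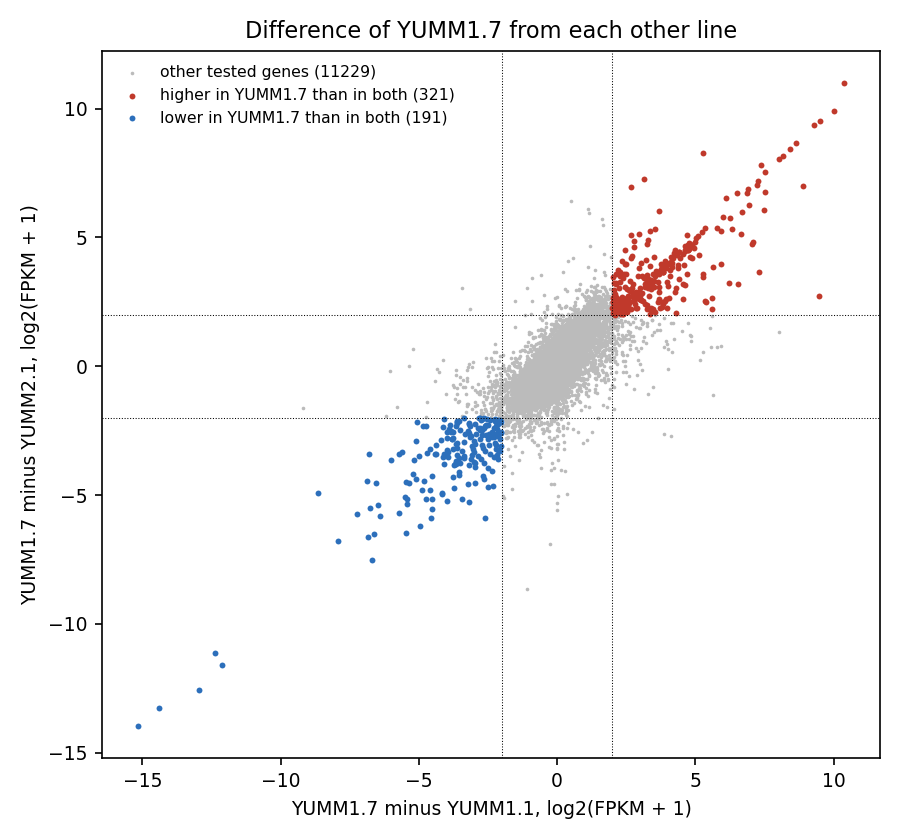
Each point is 1 of the 11741 genes compared, with its difference of YUMM1.7 from YUMM1.1 on the horizontal axis and from YUMM2.1 on the vertical axis, both in log2(FPKM + 1); dotted lines mark differences of 2. The 321 higher genes (red) fill the upper right and the 191 lower genes (blue) the lower left, where the separate group at the bottom consists of genes listed at 0 in YUMM1.7.

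A value of 0 in this table is not read as absence of expression. Rpl41, a ribosomal protein gene that every cell uses, was listed at 0 in YUMM1.7, against 36747 FPKM in YUMM1.1 and 15803 FPKM in YUMM2.1. Rps12 and Rpl13a, also ribosomal protein genes, and the ribosomal RNA gene Rn18s were listed at 0 in YUMM1.7 as well. The Y-linked translation factor gene Eif2s3y was listed at 0 in YUMM1.7, against 15.0 FPKM in YUMM1.1 and 36.5 FPKM in YUMM2.1. Another Y-linked gene, Ddx3y, was present in all lines, at 3.24 FPKM in YUMM1.7, 2.44 FPKM in YUMM1.1 and 7.87 FPKM in YUMM2.1. Among the higher genes, YUMM1.1 lists 42 at 0, YUMM2.1 lists 23 and both list the same 13. No fold is given against a line listed at 0.

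At the edge of the rule stood genes that differ little from those outside it. Just inside on the higher side were Chchd1 and Mageh1, with smaller differences of 2.01 each, and Lyplal1, at the threshold after rounding. Just outside were Fgf7 with 1.999, 1500012F01Rik with 1.99 and Gm9964 with 1.99. On the lower side Ezr stood at -2.02 and Gm3601 at -2.02 just inside, with 2610035D17Rik at the threshold after rounding. Daam2 at -1.997 and Vax2 at -1.99 stood just outside.

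Among higher protein-coding genes, Crabp1, Mgp and Lgals7 had the widest gaps. Crabp1, which encodes a cytosolic retinoic acid binding protein, stood at 2206 FPKM in YUMM1.7, 0.644 FPKM in YUMM1.1 and 0.0807 FPKM in YUMM2.1. Mgp, which encodes a matrix protein that inhibits calcification, stood at 2557 FPKM in YUMM1.7, 1.47 FPKM in YUMM1.1 and 1.64 FPKM in YUMM2.1. Lgals7, which encodes a galectin best known from keratinocytes, had 763 FPKM in YUMM1.7, 0.210 FPKM in YUMM1.1 and 0.165 FPKM in YUMM2.1. All 3 were abundant in YUMM1.7 and under 2 FPKM elsewhere, with smaller differences of 10.39, 9.92 and 9.30. Igfbp6, an insulin-like growth factor binding protein, followed with 192 FPKM in YUMM1.7, 0.0512 FPKM in YUMM1.1 and 0.0502 FPKM in YUMM2.1. The water channel gene Aqp1 had 350 FPKM in YUMM1.7, 1.98 FPKM in YUMM1.1 and 2.37 FPKM in YUMM2.1. Ramp3, whose protein modifies receptors of the calcitonin family, had 104 FPKM in YUMM1.7, 0.533 FPKM in YUMM1.1 and 0.139 FPKM in YUMM2.1. For each of these both other lines lay far below YUMM1.7. Rasgrf1, an activator of Ras, stood at 62.4 FPKM in YUMM1.7, was listed at 0 in YUMM1.1 and stood at 0.150 FPKM in YUMM2.1. The remaining genes among the 25 such genes furthest apart were Glipr1, Gchfr, Tmem37, Ngef, Ppap2c, Pde6h, Gprc5a and genes described with their groups below, and the smaller differences of the 25 ran from 4.73 to 10.39.

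**Figure D2:**
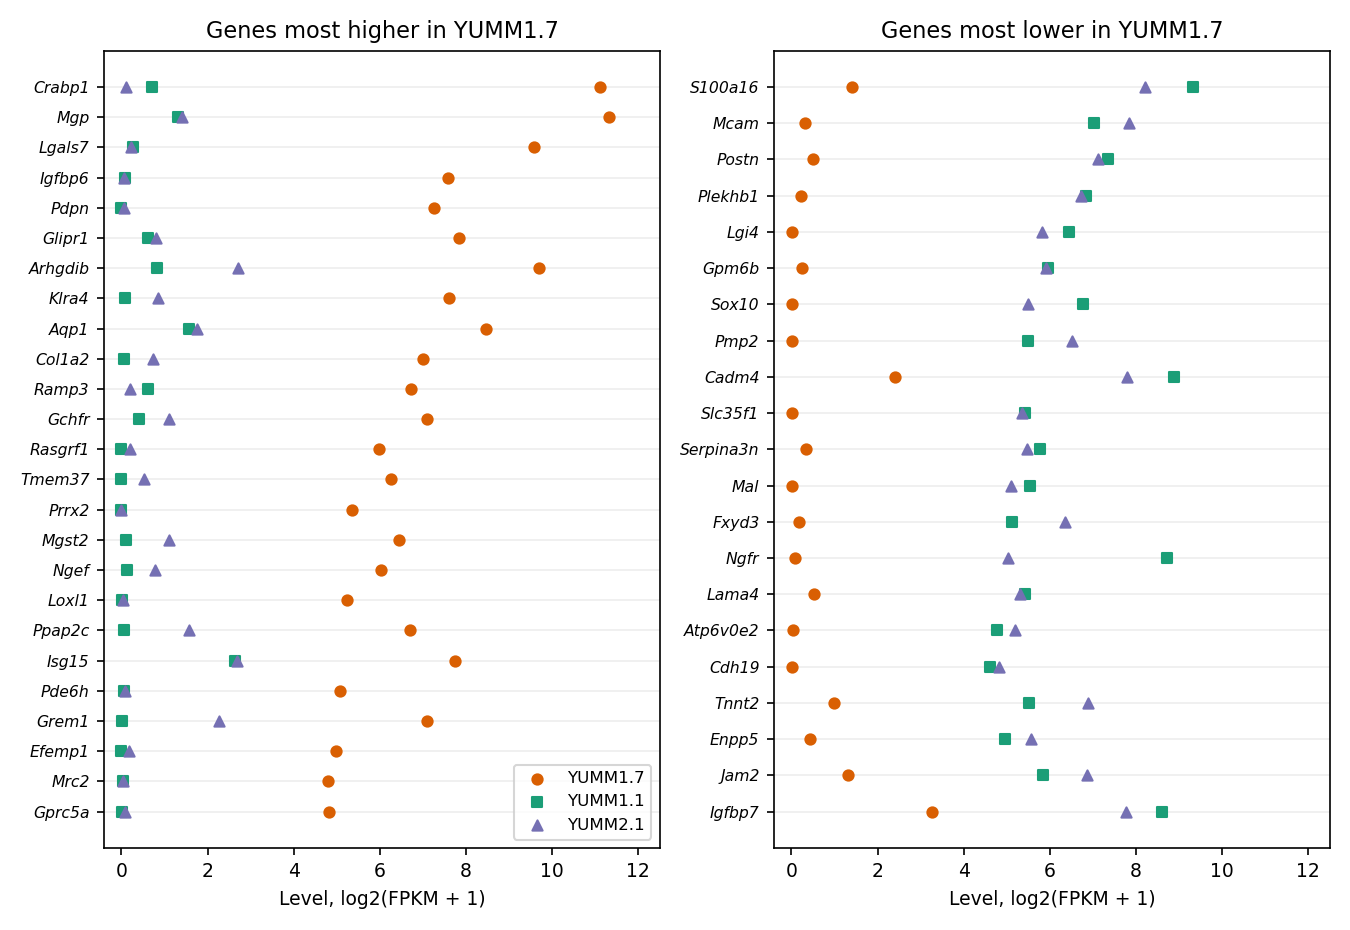
Levels in log2(FPKM + 1) of the 25 genes most higher (left) and the 21 most lower (right) in YUMM1.7 by the smaller difference, with small RNAs, pseudogenes, predicted genes and genes listed at 0 in YUMM1.7 left out, 1 symbol per line. In the left panel the YUMM1.7 circles lie right of both other lines by at least 4.73, and in the right panel they lie near 0 for most genes with both other lines to their right.

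Among lower protein-coding genes with a level above 0 in YUMM1.7, S100a16, Mcam and Postn had the widest gaps. S100a16, a member of the S100 calcium-binding family, had 1.67 FPKM in YUMM1.7, 642 FPKM in YUMM1.1 and 295 FPKM in YUMM2.1. Mcam, which encodes a cell adhesion molecule first described in melanoma, had 0.253 FPKM in YUMM1.7, 130 FPKM in YUMM1.1 and 228 FPKM in YUMM2.1. Postn, which encodes the matrix protein periostin, had 0.407 FPKM in YUMM1.7, 162 FPKM in YUMM1.1 and 138 FPKM in YUMM2.1. In all 3 the YUMM1.7 level was far below both other lines. Lgi4, a secreted factor of Schwann cell myelination, had 0.0127 FPKM in YUMM1.7, 85.5 FPKM in YUMM1.1 and 55.6 FPKM in YUMM2.1. Gpm6b, of the proteolipid family, had 0.178 FPKM in YUMM1.7, 61.3 FPKM in YUMM1.1 and 59.3 FPKM in YUMM2.1. The peripheral myelin gene Pmp2 had 0.0177 FPKM in YUMM1.7, 43.9 FPKM in YUMM1.1 and 90.3 FPKM in YUMM2.1. Lgi4 overlaps Fxyd3, another lower gene, in the reference annotation, and without a stated strand their reads cannot be told apart. Igfbp7 went opposite to Igfbp6, with 8.57 FPKM in YUMM1.7, 389 FPKM in YUMM1.1 and 219 FPKM in YUMM2.1.

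Genes of the neural crest and Schwann cell lineage formed the list with the highest share of lower members. Of 20 members compared, 14 were lower in YUMM1.7 than in both other lines and 1 was higher. Over all genes compared the shares were 1.63% and 2.73%. The list's median difference was -3.70 from YUMM1.1 and -3.37 from YUMM2.1, where all genes compared had medians of 0.02 and 0.02. Sox10 had 0.00821 FPKM in YUMM1.7, 107 FPKM in YUMM1.1 and 44.3 FPKM in YUMM2.1. Foxd3, an early neural crest transcription factor, had 0.0285 FPKM in YUMM1.7, 20.4 FPKM in YUMM1.1 and 9.89 FPKM in YUMM2.1. The receptors of this lineage read low too. Ngfr, the low-affinity nerve growth factor receptor, had 0.0643 FPKM in YUMM1.7, 421 FPKM in YUMM1.1 and 31.5 FPKM in YUMM2.1. Erbb3, a neuregulin receptor, had 0.0324 FPKM in YUMM1.7, 49.7 FPKM in YUMM1.1 and 9.50 FPKM in YUMM2.1. The GDNF family receptor Gfra2 had 0.164 FPKM in YUMM1.7, 17.1 FPKM in YUMM1.1 and 10.6 FPKM in YUMM2.1. Myelin and glial genes were less uniformly low. Pmp22, a myelin protein gene, kept 12.2 FPKM in YUMM1.7, against 135 FPKM in YUMM1.1 and 154 FPKM in YUMM2.1, and S100b kept 3.38 FPKM, against 150 FPKM and 31.8 FPKM in the same order. Sox9, a crest and cartilage factor related to Sox10, was the member that went the other way, with 6.73 FPKM in YUMM1.7, 0.407 FPKM in YUMM1.1 and 0.349 FPKM in YUMM2.1; with a common FPKM sum its smaller difference was 1.75.

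Melanocyte markers were at or near 0 in all 3 lines for most of the pigment genes, so these genes do not mark any of the libraries as pigmented. Tyr, Tyrp1 and Dct, the enzymes of melanin synthesis, were each under 0.3 FPKM in every line. Mitf had 0.617 FPKM in YUMM1.7, 0.188 FPKM in YUMM1.1 and 1.23 FPKM in YUMM2.1, so YUMM1.7 lay between the others. Of the 8 members compared, 3 were lower in YUMM1.7 and 0 higher, beside 1.63% and 2.73% of all genes compared. Besides Sox10 these were the melanosome transport gene Mlph, with 0.751 FPKM in YUMM1.7, 28.8 FPKM in YUMM1.1 and 23.5 FPKM in YUMM2.1, and Rab38, a small GTPase of melanosome biogenesis, with 0.179 FPKM, 19.6 FPKM and 12.7 FPKM in the same order. The other markers named here lay closer together. Pax3, a crest transcription factor, had 5.68 FPKM in YUMM1.7, 8.22 FPKM in YUMM1.1 and 7.71 FPKM in YUMM2.1, and Gpnmb had 75.7 FPKM, 30.5 FPKM and 68.8 FPKM.

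Of 20 cell adhesion molecules of the immunoglobulin family 7 were lower and 0 higher by the rule, beside 1.63% and 2.73% of all genes compared. By any amount, 13 lay below both lines and 3 above both, where 4499 of all 11741 genes compared lay below both and 4711 above both. The median difference of the 20 was -1.74 from YUMM1.1 and -1.07 from YUMM2.1. The 7 were Mcam, Cadm4, L1cam, Ncam1, Nrcam, Chl1 and Jam2, of which L1cam, Ncam1 and Nrcam are also in the neural crest list. Cadm4, which mediates contact of Schwann cells with axons, had 4.26 FPKM in YUMM1.7, 472 FPKM in YUMM1.1 and 221 FPKM in YUMM2.1. Ncam1 kept 3.49 FPKM in YUMM1.7, against 21.8 FPKM in YUMM1.1 and 75.1 FPKM in YUMM2.1. Integrin subunits had 4 of 15 lower and 0 higher. They were Itga4, a receptor chain for fibronectin and VCAM-1, with 0.152 FPKM in YUMM1.7, 19.6 FPKM in YUMM1.1 and 34.3 FPKM in YUMM2.1, and Itga1, Itga8 and Itgb3. Not every subunit was lower, since Itga5, the main fibronectin receptor chain, had 25.2 FPKM in YUMM1.7, 9.04 FPKM in YUMM1.1 and 7.78 FPKM in YUMM2.1. Cadherins were split, with Cdh13 and Pcdh19 higher and Cdh19 and Pcdh1 lower among 11. Cdh13 had 19.5 FPKM in YUMM1.7, was listed at 0 in YUMM1.1 and had 0.481 FPKM in YUMM2.1. The Schwann cell precursor cadherin Cdh19 had 0.0145 FPKM in YUMM1.7, 23.5 FPKM in YUMM1.1 and 27.1 FPKM in YUMM2.1.

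**Figure D3:**
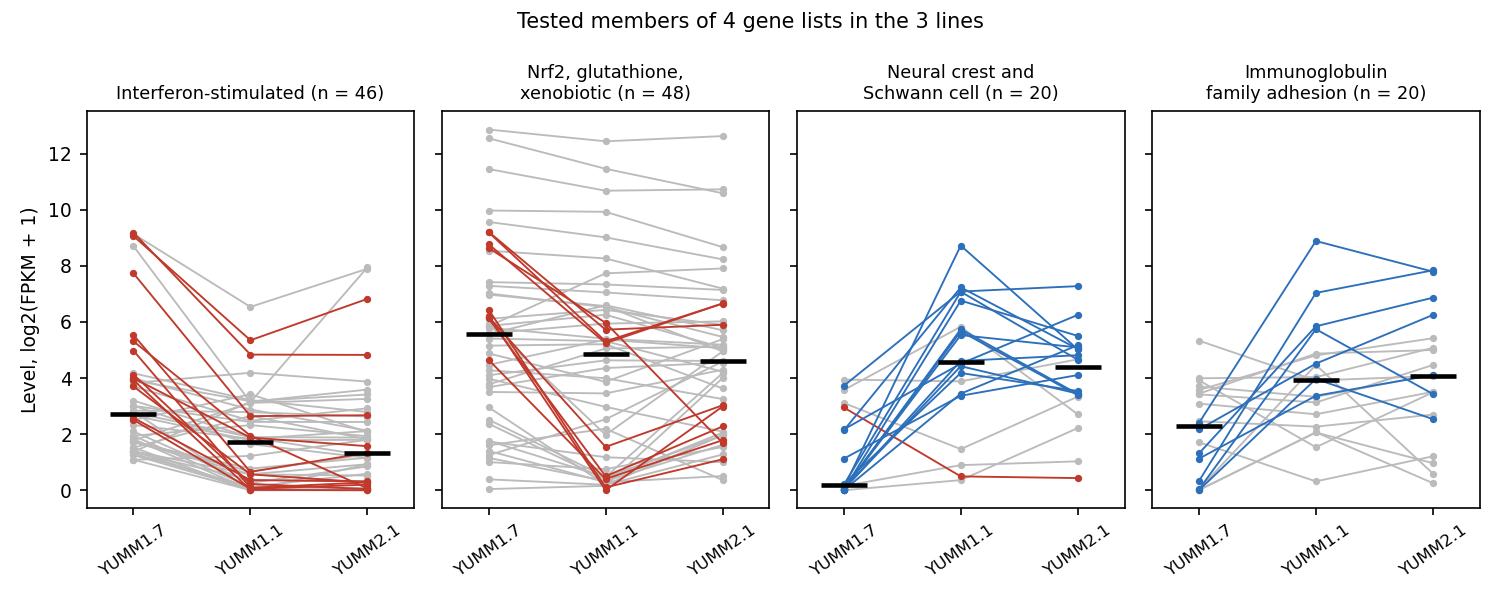
Levels in log2(FPKM + 1) of the compared members of 4 gene lists, with 1 line per gene across YUMM1.7, YUMM1.1 and YUMM2.1, red for genes higher and blue for genes lower in YUMM1.7 than in both, gray for the rest, and black bars for the medians. Red genes of the interferon-stimulated list (12 of 46) and the Nrf2 list (9 of 48) drop to the right, and blue genes of the neural crest list (14 of 20) and the immunoglobulin adhesion list (7 of 20) climb.

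Among 14 fibroblast markers, 6 were higher and 1, Postn, lower, beside 2.73% and 1.63% of all genes compared. The median differences were 1.15 from YUMM1.1 and 1.94 from YUMM2.1. With a common FPKM sum 4 were higher and 2 lower, with medians of 0.84 and 1.01, and Twist2 (smaller difference 1.69) and Pdgfrb (1.16) no longer passed. Pdpn, a surface glycoprotein of fibroblasts and lymphatic endothelium, had 152 FPKM in YUMM1.7, was listed at 0 in YUMM1.1 and had 0.0418 FPKM in YUMM2.1. Col1a2, a chain of type I collagen, had 127 FPKM in YUMM1.7, 0.0367 FPKM in YUMM1.1 and 0.651 FPKM in YUMM2.1. Its partner chain Col1a1 was low throughout, with 1.79 FPKM in YUMM1.7, 0.455 FPKM in YUMM1.1 and 1.17 FPKM in YUMM2.1. The surface marker Cd34 had 11.7 FPKM in YUMM1.7, 0.222 FPKM in YUMM1.1 and 0.328 FPKM in YUMM2.1. Some other fibroblast markers were at or near 0 in all lines, with Lum and Tcf21 listed at 0 in YUMM1.7 and Thy1 at 0.0268 FPKM there. Dcn had 1.40 FPKM in YUMM1.7, 0.0175 FPKM in YUMM1.1 and 0.0324 FPKM in YUMM2.1. S100a4 was abundant throughout, with 43129 FPKM, 32253 FPKM and 14239 FPKM in the same order. Ly6a was highest in YUMM1.1, with 9.77 FPKM in YUMM1.7, 115 FPKM in YUMM1.1 and 0.295 FPKM in YUMM2.1. The type III collagen gene Col3a1 was lower by less than the rule asks, with 21.9 FPKM in YUMM1.7, 98.7 FPKM in YUMM1.1 and 46.2 FPKM in YUMM2.1.

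Transcription factors of mesenchymal and other developmental programs were among the higher genes. In the list of epithelial-mesenchymal transition factors, 5 of 18 were higher and 0 lower, beside 2.73% and 1.63% of all genes compared. With a common FPKM sum 4 were higher and 2 lower. Prrx2, a homeobox factor of mesenchyme, had 40.2 FPKM in YUMM1.7 and was listed at 0 in both other lines. Snai1, a repressor of epithelial cadherin, had 14.6 FPKM in YUMM1.7, 0.121 FPKM in YUMM1.1 and 0.0472 FPKM in YUMM2.1. Twist2, a helix-loop-helix factor of dermal mesenchyme, had 10.6 FPKM in YUMM1.7, 0.966 FPKM in YUMM1.1 and 0.845 FPKM in YUMM2.1. The other higher members were Foxc2, a forkhead factor of vessels and mesenchyme, and Tgfbi, which encodes a matrix protein and not a transcription factor. Related factors did not share this pattern. Prrx1 had 31.0 FPKM in YUMM1.7, 27.5 FPKM in YUMM1.1 and 23.3 FPKM in YUMM2.1, and Snai2, a crest factor, had 2.07 FPKM, 10.5 FPKM and 4.90 FPKM in the same order. Of 28 other developmental transcription factors, 7 were higher and 1, Sox6, lower. The tendon factor Scx had 15.2 FPKM in YUMM1.7, 0.119 FPKM in YUMM1.1 and 0.163 FPKM in YUMM2.1. Gata2, known from blood progenitors, had 16.5 FPKM in YUMM1.7, 0.229 FPKM in YUMM1.1 and 0.367 FPKM in YUMM2.1. Foxf1a, Foxl1, Hic1, Osr1 and Dlx2 were the other higher members, at 4.93 to 13.1 FPKM in YUMM1.7. Foxl1 and Foxc2 are consecutive among the genes compared on chromosome 8, and both were higher.

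Matrix genes differed in both directions. Of 41 matricellular proteins and proteoglycans 6 were higher and 2 lower, beside 2.73% and 1.63% of all genes compared. With a common FPKM sum the counts were 4 and 4. After Mgp, the higher genes were the elastic fiber genes Loxl1, Efemp1 and Fbn1, the TGF-beta induced adhesion protein gene Tgfbi, and Wisp2. Loxl1, a lysyl oxidase family enzyme that cross-links elastin, had 36.7 FPKM in YUMM1.7, 0.00445 FPKM in YUMM1.1 and 0.0209 FPKM in YUMM2.1. The fibulin gene Efemp1 had 30.8 FPKM in YUMM1.7, was listed at 0 in YUMM1.1 and had 0.137 FPKM in YUMM2.1. Lower were Postn and Prelp. Among 21 collagen chains 2 were higher and 3 lower, and with a common FPKM sum 2 and 7. Col6a3, of beaded filament collagen, had 31.7 FPKM in YUMM1.7, 0.255 FPKM in YUMM1.1 and 1.71 FPKM in YUMM2.1. The adjacent basement membrane genes Col4a1 and Col4a2, which overlap in the annotation, were both lower; Col4a1 had 9.53 FPKM in YUMM1.7, 97.0 FPKM in YUMM1.1 and 59.7 FPKM in YUMM2.1. Of 38 matrix proteases and inhibitors 2 were higher and 9 lower, with median differences of -0.32 from YUMM1.1 and -0.57 from YUMM2.1, and with a common FPKM sum 1 was higher and 11 lower. The lower genes were Mmp1a, Mmp15, Mmp17, Mmp19, Adam10, Adam12, Adamts1, Adamts5 and the protease inhibitor Serpine2, and the higher ones Mmp11 and Mmp23. Adam10, a sheddase of many surface proteins, had 16.3 FPKM in YUMM1.7, 75.04 FPKM in YUMM1.1 and 80.6 FPKM in YUMM2.1.

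**Figure D4:**
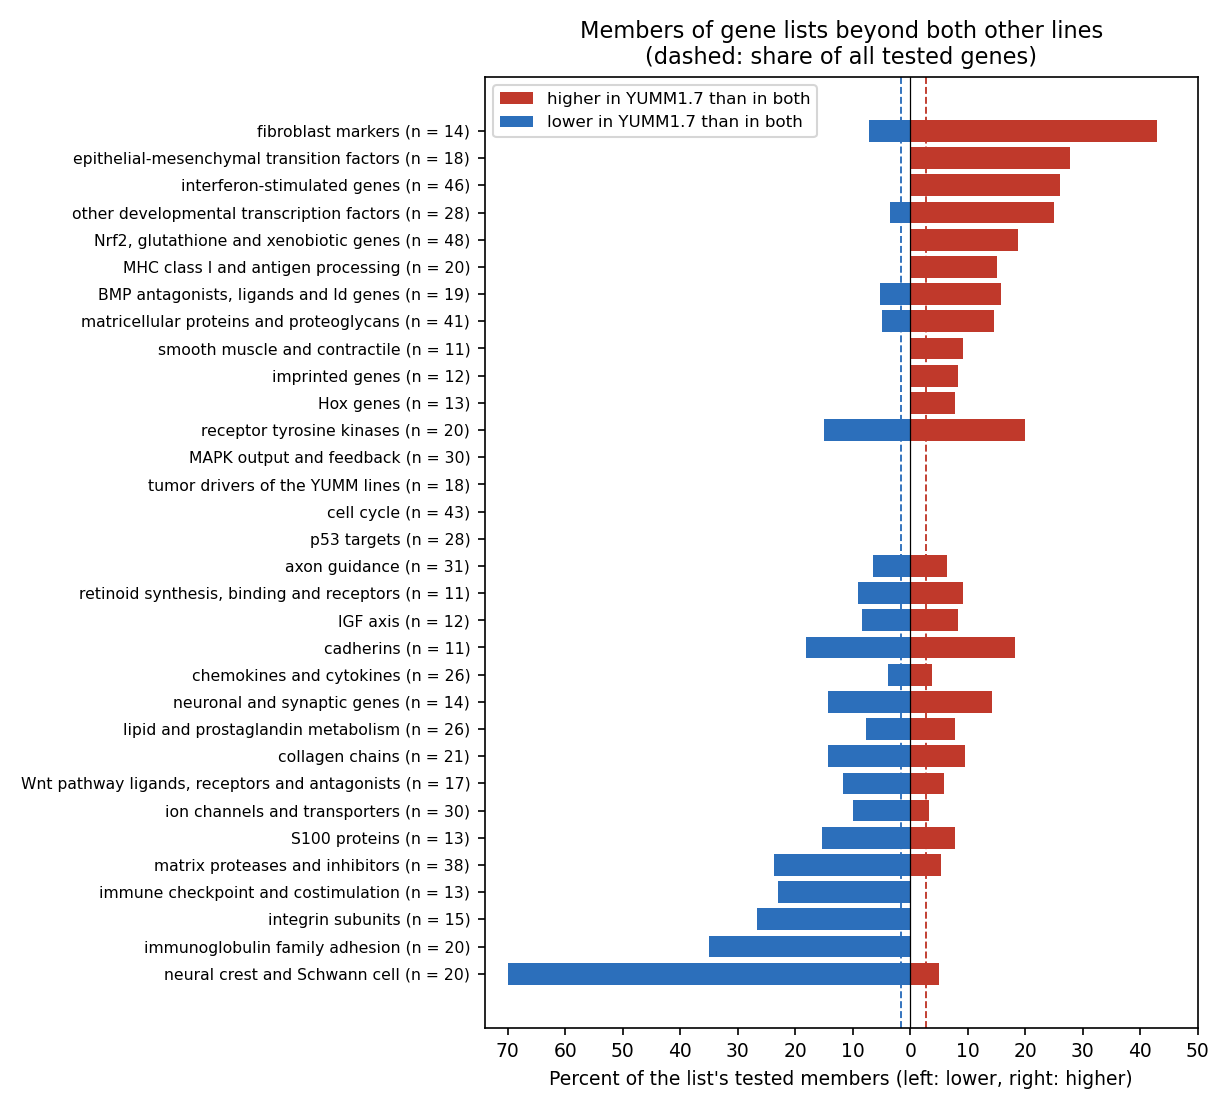
For each gene list with more than 10 compared members, bars give the percent of its members higher (right, red) and lower (left, blue) in YUMM1.7 than in both other lines, with the number compared in brackets and dashed lines at the 2.73% and 1.63% of all genes. Fibroblast markers have the longest bar to the right, the neural crest list the longest to the left, and the MAPK, p53, cell cycle and driver lists have none in the values as deposited.

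Receptor tyrosine kinases differed in both directions, at times between related members. Of 20 compared, 4 were higher (Ddr2, Pdgfra, Pdgfrb and Fgfr1) and 3 lower (Erbb3, Ephb2 and Ddr1). Over all genes compared 2.73% were higher and 1.63% lower. With a common FPKM sum 2 of the 20 were higher and 5 lower. Ddr2, a receptor for fibrillar collagen, had 24.3 FPKM in YUMM1.7, 0.0380 FPKM in YUMM1.1 and 0.1001 FPKM in YUMM2.1. The paralog Ddr1, a collagen receptor of epithelia and glia, had 3.61 FPKM in YUMM1.7, 32.3 FPKM in YUMM1.1 and 23.5 FPKM in YUMM2.1. Pdgfra, a platelet-derived growth factor receptor of mesenchyme, had 13.9 FPKM in YUMM1.7, 0.202 FPKM in YUMM1.1 and 0.170 FPKM in YUMM2.1. The ligand gene Pdgfa went the other way, with 25.6 FPKM in YUMM1.7, 149 FPKM in YUMM1.1 and 185 FPKM in YUMM2.1. Axl, a receptor often high in mesenchymal melanoma, was similar in all lines, with 154 FPKM in YUMM1.7, 176 FPKM in YUMM1.1 and 125 FPKM in YUMM2.1. In the bone morphogenetic protein list 3 of 19 were higher (Grem1, Bmp2 and Id3) and 1 lower (Id2). The antagonist Grem1 had 135 FPKM in YUMM1.7, 0.00970 FPKM in YUMM1.1 and 3.80 FPKM in YUMM2.1. The ligand Bmp2 had 16.8 FPKM in YUMM1.7, was listed at 0 in YUMM1.1 and had 0.227 FPKM in YUMM2.1. Id3 and Id2, inhibitors of helix-loop-helix factors that respond to this pathway, were split. Id3 had 272 FPKM in YUMM1.7, 57.7 FPKM in YUMM1.1 and 54.6 FPKM in YUMM2.1, and Id2 had 27.1 FPKM, 143 FPKM and 164 FPKM in the same order.

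Of 46 interferon-stimulated genes compared, 12 were higher in YUMM1.7 than in both other lines and 0 lower by the rule. Over all genes compared 2.73% were higher and 1.63% lower. With a common FPKM sum 8 of the 46 were higher and 1 lower. The members had a median difference of 1.22 from YUMM1.1 and 1.24 from YUMM2.1, and 39 of the 46 lay above both lines by any amount and 5 below both. Of all 11741 genes compared, 4711 lay above both lines by any amount and 4499 below both. Isg15, a ubiquitin-like modifier, had 212 FPKM in YUMM1.7, 5.24 FPKM in YUMM1.1 and 5.38 FPKM in YUMM2.1. Rtp4, a receptor transporter, had 30.5 FPKM in YUMM1.7, 0.0610 FPKM in YUMM1.1 and 0.215 FPKM in YUMM2.1. Usp18, the protease that removes Isg15 from proteins, had 16.4 FPKM in YUMM1.7, 0.169 FPKM in YUMM1.1 and 0.0278 FPKM in YUMM2.1. The antiviral sensors and effectors Oas1a, Oasl2, Dhx58 and Ifitm3 were also in this group, with Ifi27l2a, Lgals3bp and Ly6e. Oas1a, an RNA-sensing synthetase, had 14.2 FPKM in YUMM1.7, 0.00826 FPKM in YUMM1.1 and was listed at 0 in YUMM2.1. Transcription factors of the pathway were among the higher members. Irf7 had 12.0 FPKM in YUMM1.7, 0.479 FPKM in YUMM1.1 and 0.208 FPKM in YUMM2.1, and Irf9 had 14.9 FPKM, 2.68 FPKM and 1.97 FPKM in the same order. Some members read lower in YUMM1.7, named here after their values were seen. Gbp2 had 1.59 FPKM in YUMM1.7, 7.89 FPKM in YUMM1.1 and 11.03 FPKM in YUMM2.1, and Ifit2 had 2.43 FPKM, 7.65 FPKM and 8.55 FPKM in the same order.

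The interferon-stimulated response element, letters GAAANNGAAA searched on both strands, was present in 3 of the 7 higher members of this list that have a RefSeq promoter window of 250 bases before to 50 bases after the start. Across all 32851 windows of mouse RefSeq genes 3.44% held it, and of 8951 genes compared with a window 3.60% did. Of 218 higher genes with a window, 14 held it (6.42%), and of 135 lower genes, 3 did (2.22%). A match describes the letters in the window only. The 3 windows, shown to let the element be located beside the levels above, come from build GRCm38.p6, read 5′ to 3′ with the element in capitals.

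Isg15, chr4:156200769-156201068, minus strand: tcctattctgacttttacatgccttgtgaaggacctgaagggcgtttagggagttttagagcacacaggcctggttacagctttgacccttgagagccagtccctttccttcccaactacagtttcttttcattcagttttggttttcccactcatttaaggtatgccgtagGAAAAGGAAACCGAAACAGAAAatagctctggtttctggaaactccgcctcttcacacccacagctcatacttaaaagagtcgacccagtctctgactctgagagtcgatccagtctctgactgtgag
Oas1a, chr5:120907476-120907775, minus strand: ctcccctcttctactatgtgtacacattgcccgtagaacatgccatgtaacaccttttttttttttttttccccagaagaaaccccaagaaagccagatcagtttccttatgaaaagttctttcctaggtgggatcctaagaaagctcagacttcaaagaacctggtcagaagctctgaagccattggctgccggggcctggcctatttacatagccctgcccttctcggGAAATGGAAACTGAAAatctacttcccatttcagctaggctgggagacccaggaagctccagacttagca
Ifitm3, chr7:141010695-141010994, minus strand: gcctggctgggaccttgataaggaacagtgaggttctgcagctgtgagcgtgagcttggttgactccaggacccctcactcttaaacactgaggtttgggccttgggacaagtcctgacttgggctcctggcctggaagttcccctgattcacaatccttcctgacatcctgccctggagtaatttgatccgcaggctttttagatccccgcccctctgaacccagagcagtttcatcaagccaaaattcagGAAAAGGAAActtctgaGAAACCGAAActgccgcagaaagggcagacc

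In Isg15 the element is tandem, with overlapping matches that begin 78, 72 and 66 bases before the start, and in Oas1a matches begin 20 and 14 bases before it. In Ifitm3 they begin 2 and 19 bases after the start. Ifitm3 had 535 FPKM in YUMM1.7, 39.7 FPKM in YUMM1.1 and 112 FPKM in YUMM2.1.

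Of 20 genes of MHC class I and antigen processing, 3 were higher by the rule and 0 lower, beside 2.73% and 1.63% of all genes compared. The list's median differences were 0.90 from YUMM1.1 and 0.61 from YUMM2.1. With a common FPKM sum 1 was higher and these medians were 0.18 and -0.56. H2-K1, a classical MHC class I gene, had 33.6 FPKM in YUMM1.7, 2.52 FPKM in YUMM1.1 and 0.166 FPKM in YUMM2.1. H2-D1, the other classical gene, had 109 FPKM in YUMM1.7, 9.38 FPKM in YUMM1.1 and 22.9 FPKM in YUMM2.1, and H2-T23, a nonclassical gene, had 18.4 FPKM, 3.03 FPKM and 3.12 FPKM in the same order. These genes are similar in sequence, and how shared reads were assigned is not given in the sources used here. Their partner B2m had 723 FPKM in YUMM1.7, 330 FPKM in YUMM1.1 and 608 FPKM in YUMM2.1. Among 13 checkpoint and costimulation genes 3 were lower and 0 higher. Cd200, an inhibitory ligand for myeloid cells, had 0.0480 FPKM in YUMM1.7, 21.6 FPKM in YUMM1.1 and 10.2 FPKM in YUMM2.1. Raet1e and its neighbor H60b encode ligands of the natural killer cell receptor NKG2D. Raet1e had 0.441 FPKM in YUMM1.7, 7.20 FPKM in YUMM1.1 and 21.2 FPKM in YUMM2.1, and H60b was listed at 0 in YUMM1.7, against 5.77 FPKM and 11.2 FPKM.

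Glutathione and detoxification genes were higher for 9 of 48 members, with 0 lower, beside 2.73% and 1.63% of all genes compared. Rescaling by the median ratio gave 9 and 0, and by a common upper quartile 8 and 0. Of the 3 rescalings, only the common FPKM sum changed the counts further. A difference of 3 gave 5 higher and 0 lower, and a difference of 1.5 gave 9 and 1. Median differences were 0.42 from YUMM1.1 and 0.76 from YUMM2.1. With a common FPKM sum 2 members were higher (Mgst1 and Mgst2) and 2 lower, and the medians were -0.21 and -0.49, where all genes had -0.62 and -1.12. Mgst2, a membrane glutathione transferase, had 85.8 FPKM in YUMM1.7, 0.0716 FPKM in YUMM1.1 and 1.15 FPKM in YUMM2.1. Mgst1 had 68.9 FPKM in YUMM1.7, 0.413 FPKM in YUMM1.1 and 3.84 FPKM in YUMM2.1, and Mgst3 had 593 FPKM, 51.9 FPKM and 58.7 FPKM in the same order. The cytosolic transferase gene Gsta4 had 73.1 FPKM in YUMM1.7, was listed at 0 in YUMM1.1 and had 6.92 FPKM in YUMM2.1. The quinone reductase gene Nqo1 had 397 FPKM in YUMM1.7, 61.6 FPKM in YUMM1.1 and 2.23 FPKM in YUMM2.1. The metallothionein genes Mt1 and Mt2, which bind zinc and copper and lie next to each other, were both higher. Mt1 had 587 FPKM in YUMM1.7, 38.6 FPKM in YUMM1.1 and 99.8 FPKM in YUMM2.1. Mt2 had 71.7 FPKM in YUMM1.7, 1.92 FPKM in YUMM1.1 and 7.15 FPKM in YUMM2.1. Apart from Mgst2 (2803 nt), the genes named in this paragraph have a longest annotated transcript of 511 nt (Mt2) to 1553 nt (Nqo1). They fall in the shortest of 5 length classes, 171 to 1889 nt. In that class 5.20% of genes were higher, with median differences of 0.45 from YUMM1.1 and 0.81 from YUMM2.1. The part of transcript length in this list was not tested.

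Metallothionein promoters are known for metal response elements, to which the zinc-sensing factor Mtf1 binds. The letters TGCACNC or TGCGCNC, searched on both strands, were found in 4 places in the Mt2 window and in 3 in the Mt1 window. They are common, with 25.7% of all windows and 41.0% of compared genes with a window holding at least 1. Of 218 higher genes with a window 34.4% held them, and of 135 lower genes 36.3% did. Both windows of build GRCm38.p6 are shown so that the pair of adjacent higher genes can be compared, with the element in capitals.

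Mt2, chr8:94172368-94172667, plus strand: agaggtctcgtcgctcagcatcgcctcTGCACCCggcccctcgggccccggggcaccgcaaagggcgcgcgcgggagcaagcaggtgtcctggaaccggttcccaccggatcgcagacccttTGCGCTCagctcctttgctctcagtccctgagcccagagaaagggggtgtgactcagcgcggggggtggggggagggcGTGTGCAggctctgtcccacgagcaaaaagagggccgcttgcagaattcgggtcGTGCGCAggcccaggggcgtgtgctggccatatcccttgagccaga
Mt1, chr8:94178839-94179138, plus strand: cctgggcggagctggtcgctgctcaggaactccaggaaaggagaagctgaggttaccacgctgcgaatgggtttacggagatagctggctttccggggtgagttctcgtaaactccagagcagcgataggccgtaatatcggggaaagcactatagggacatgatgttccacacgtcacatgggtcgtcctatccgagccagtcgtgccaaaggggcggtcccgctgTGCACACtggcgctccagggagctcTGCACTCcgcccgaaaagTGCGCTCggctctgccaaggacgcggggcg

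The antioxidant element TGACNNNGC was in 2 of the 7 higher members of the detoxification list with a window (Mgst1 and Mt2), against 17.0% of compared genes with a window. It was in 17.4% of 218 higher genes with a window and in 20% of 135 lower genes.

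Several higher genes are known from other cell types, while most defining markers of those cells were at or near 0. Arhgdib, a gene best known from leukocytes, had 833 FPKM in YUMM1.7, 0.775 FPKM in YUMM1.1 and 5.49 FPKM in YUMM2.1. Cyba, an NADPH oxidase subunit, had 741 FPKM in YUMM1.7, 0.0499 FPKM in YUMM1.1 and 110 FPKM in YUMM2.1; with a common FPKM sum its smaller difference was 1.34. Cd14, a bacterial lipopolysaccharide receptor of monocytes, had 6.21 FPKM in YUMM1.7, was listed at 0 in YUMM1.1 and had 0.00843 FPKM in YUMM2.1. In YUMM1.7 the leukocyte genes Ptprc, Itgam, Tyrobp, Aif1 and Cd52 were listed at 0 and Csf1r stood at 0.00561 FPKM. Of the 24 leukocyte markers listed, 6 were compared, with 3 higher and 1 lower, beside 2.73% and 1.63% of all genes compared. The 23 markers with a symbol in the authors' table summed to 1583 FPKM in YUMM1.7, 6.66 FPKM in YUMM1.1 and 151 FPKM in YUMM2.1. Arhgdib and Cyba made up nearly all of the YUMM1.7 sum, and Cyba most of the YUMM2.1 sum. The sums therefore do not describe the other markers of the list. Cd68 had 0.687 FPKM in YUMM1.7, 0.362 FPKM in YUMM1.1 and 4.27 FPKM in YUMM2.1. The part of leukocyte markers in the higher genes was not tested. Lyz2, the lysozyme gene of macrophages, was lower, with 0.0480 FPKM in YUMM1.7, 4.96 FPKM in YUMM1.1 and 25.9 FPKM in YUMM2.1. Klra4, of the Ly49 receptor family of natural killer cells, had 195 FPKM in YUMM1.7, 0.0622 FPKM in YUMM1.1 and 0.812 FPKM in YUMM2.1. Nkg7, Ncr1, Prf1 and Cd3d were listed at 0 in YUMM1.7, and the related Klra1, Klra7 and Klra8 were listed at 0 in all lines. Lgals7 is known from keratinocytes, whose Krt5, Krt14 and Dsp were listed at 0 in YUMM1.7. Other genes of that list were not near 0 in any line. Krt10 had 4.60 FPKM in YUMM1.7, 5.53 FPKM in YUMM1.1 and 1.99 FPKM in YUMM2.1, and Sfn had 1.95 FPKM, 2.60 FPKM and 1.13 FPKM in the same order. Endothelial Pecam1 stood at 0.0203 FPKM in YUMM1.7, with Tie1 and Cldn5 listed at 0. Flt1 of the endothelial list had 5.13 FPKM in YUMM1.7, 5.36 FPKM in YUMM1.1 and 8.95 FPKM in YUMM2.1. Here too a 0 is not read as absence.

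No gene of the lists for MAPK output (30 compared), p53 targets (28), the cell cycle (43) or the drivers of YUMM tumors (18) passed the rule in the values as deposited, where 2.73% of all genes compared were higher and 1.63% lower. With a common FPKM sum 2 MAPK output genes, 3 p53 targets and 1 driver were lower, and 0 cell cycle genes passed. In the driver list Braf had 1.09 FPKM in YUMM1.7, 1.14 FPKM in YUMM1.1 and 2.19 FPKM in YUMM2.1. Cdkn2a had 5.84 FPKM in YUMM1.7, had 8.41 FPKM in YUMM1.1 and was listed at 0 in YUMM2.1. A gene-level FPKM does not show which exons are lost, so these values do not check the genotype. The cyclin gene Ccnd1 had 170 FPKM in YUMM1.7, 865 FPKM in YUMM1.1 and 462 FPKM in YUMM2.1, a smaller difference short of the rule, and with a common FPKM sum it was -2.83.

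Small RNAs and short transcripts held a larger share of higher genes than other classes. Of 49 symbols classed as small RNAs, 26 were higher (53.1%) and 1, Rn18s, lower. Rn18s, the 18S ribosomal RNA, was classed by its symbol and is not a small RNA, and its 0 in YUMM1.7 is not read as absence. The FPKM of the 49 symbols summed to 175509 in YUMM1.7, to 13856 in YUMM1.1 and to 13929 in YUMM2.1. These sums include Rn18s, with 5298 FPKM in YUMM1.1 and 2233 FPKM in YUMM2.1. Rn5s, the 5S ribosomal RNA, made up most of the YUMM1.7 sum with 162562 FPKM, against 5818 FPKM in YUMM1.1 and 8715 FPKM in YUMM2.1. Rnu3a, a nucleolar RNA, stood at 734 FPKM in YUMM1.7 and was listed at 0 in both other lines. The genes that contain the small nucleolar RNAs were not higher by the rule. Eef1b2, the host of Snora41, had 3004 FPKM in YUMM1.7, 1028 FPKM in YUMM1.1 and 639 FPKM in YUMM2.1, and Tpt1, the host of Snora31, had 4212 FPKM, 4667 FPKM and 2821 FPKM. Without small RNAs the median longest annotated transcript was 2242 nt for higher genes, 3635 nt for lower genes and 3353 nt for all genes compared. Of 5 equal length classes, the shortest (171 to 1889 nt) had 5.20% higher and 1.43% lower genes, and median differences of 0.45 from YUMM1.1 and 0.81 from YUMM2.1. The longest (5241 to 123179 nt) had 1.35% higher and 2.29% lower genes, with medians of -0.10 and -0.39. The part of transcript length in the counts of higher and lower genes was not tested. Crabp1 (802 nt) and Mgp (715 nt) are in the shortest class.

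**Figure D5:**
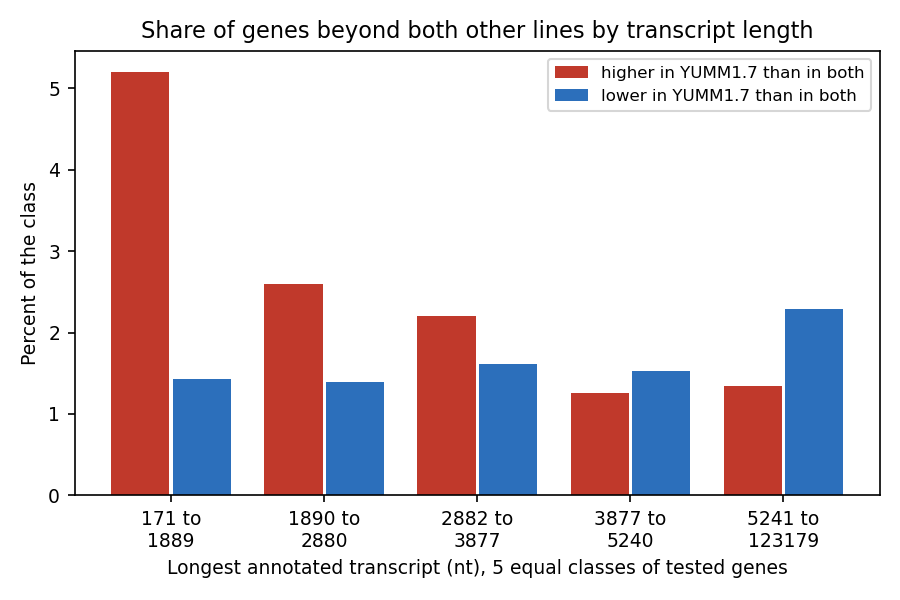
Percent of compared genes that were higher (red) or lower (blue) in YUMM1.7 than in both other lines, in 5 equal classes of the longest annotated transcript in nt. The higher share runs from 5.20% in the shortest class to 1.35% in the longest, and the lower share from 1.43% to 2.29%.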

How the data were processed

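RNA sequencing values of 3 mouse melanoma lines, 1 library each, were used as deposited. Per the labels' protocols, RNA came from a Qiagen AllPrep kit and libraries from a standard Illumina procedure. Per the submitters' processing notes, the authors used TopHat2 2.0.9, Cufflinks and Cuffnorm; the deposited FPKM values per gene symbol come from these steps. What build, annotation, strand setting and library scaling were used is not given in the sources used here, and FPKM sums differ between lines.

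Differences were taken on log2(FPKM + 1) for symbols with at least 1 FPKM in at least 1 line. With 1 library per line no test was run. The calculation was tested on simulated data. Depth was inferred from the spacing of low FPKM values times length in genes of at least 3000 nt; 76.8% of such values in YUMM1.7, 82.1% in YUMM1.1 and 81.8% in YUMM2.1 lay within 0.2 of a whole multiple. Lengths came from a reference annotation that need not be the authors' (95.3% of genes compared had one), and promoter windows from RefSeq, build GRCm38.p6. Motif letters for the metal response element were narrowed after a looser form proved too common.

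The members and the 41 gene lists were chosen with earlier results of these data known, so no list is independent support. Named genes were the 25 furthest apart in each direction, without pseudogenes, small RNAs or predicted genes, plus up to 8 members of each list, the 3 genes on either side of the threshold, and the melanocyte markers and drivers. Genes named outside this rule (list members short of the threshold, markers of other cell types, genes listed at 0, small RNAs and their hosts, Pdgfa, and genes of the closing section) were chosen after their values were seen. A few genes named by the rule are not reported here. The alternatives tried were pseudocounts of 0.1 and 5, no filter, a filter at 5 FPKM, 3 rescalings, leaving out genes listed at 0 or predicted and small RNA symbols, and differences of 1.5 and 3. The software was Python 3.11.15, pandas 2.3.3, numpy 2.4.6 and matplotlib 3.10.9.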

Additional observations from a re-analysis of the deposited data

How the results depend on the processing

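The counts of 321 higher and 191 lower genes moved with the pseudocount, the scaling and the threshold. A pseudocount of 0.1 gave 520 and 474, a pseudocount of 5 gave 147 and 61, and a common FPKM sum gave 148 and 484. A difference of 1.5 gave 566 and 333, and a difference of 3 gave 142 and 80. The common sum kept 148 of the 321 higher and all 191 lower genes. The other settings stayed within 1.5 times. No filter gave 321 and 191, a filter at 5 FPKM 286 and 187, a common upper quartile 293 and 207, and the median ratio 320 and 190. Leaving out genes listed at 0 gave 269 and 170, and leaving out pseudogenes, small RNAs and predicted genes 248 and 173. No value changed its sign among the named genes beyond both lines. With the common sum, 30 of the 86 named higher genes and 0 of the 75 named lower genes no longer passed. Among them were Nqo1 (1.86), Gsta4 (1.92), Mt1 (1.15), H2-D1 (0.84), Fgfr1 (1.12), Twist2 (1.69) and Id3 (0.91), smaller differences on the log2 scale. No paired analysis was possible because each line has 1 library, and no replicate could be left out. Low levels are limited by depth: 3 fragments on a 2 kb transcript are 0.0325 FPKM in YUMM1.7.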

Other observations

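Higher and lower genes beyond the lists, named after their values were seen, included regulators of inflammation. The Il1rl1 gene, a receptor for the alarmin IL-33, had 25.01 FPKM in YUMM1.7, 0.0636 FPKM in YUMM1.1 and 0.165 FPKM in YUMM2.1, and its neighbor Il18rap, an IL-18 receptor chain, had 14.7 FPKM, 0.122 FPKM and 1.81 FPKM in the same order. Tnfrsf9, a costimulatory receptor of T cells, had 15.9 FPKM in YUMM1.7, 0.00776 FPKM in YUMM1.1 and 0.0594 FPKM in YUMM2.1. Gsdmd, the pore-forming gasdermin of pyroptosis, had 19.3 FPKM in YUMM1.7, was listed at 0 in YUMM1.1 and had 0.0278 FPKM in YUMM2.1. The hypoxia-regulated prolyl hydroxylase gene Egln3 had 26.3 FPKM in YUMM1.7, 0.113 FPKM in YUMM1.1 and 0.0619 FPKM in YUMM2.1. On the lower side Il1rap, the shared chain of IL-1 family receptors, had 3.20 FPKM in YUMM1.7, 52.2 FPKM in YUMM1.1 and 57.4 FPKM in YUMM2.1. Notch1 had 1.48 FPKM in YUMM1.7, 23.9 FPKM in YUMM1.1 and 14.6 FPKM in YUMM2.1, while its ligand gene Dll1 had 3.63 FPKM in YUMM1.7, 0.0346 FPKM in YUMM1.1 and 0.0475 FPKM in YUMM2.1. The neural factor Pou3f2, known in melanoma as Brn2, had 0.0362 FPKM in YUMM1.7, 3.32 FPKM in YUMM1.1 and 3.57 FPKM in YUMM2.1.

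Of 1410 groups of symbols that share a root and have at least 2 compared members, 24 had members in both directions. Besides the pairs given above these included Sox12 with 5.03 FPKM in YUMM1.7, 0.109 FPKM in YUMM1.1 and listed at 0 in YUMM2.1, set against Sox6, which was listed at 0 in YUMM1.7 and had 4.44 FPKM in YUMM1.1 and 5.38 FPKM in YUMM2.1. Semaphorins were split as well, with Sema3a at 19.8 FPKM in YUMM1.7, 0.260 FPKM in YUMM1.1 and 2.35 FPKM in YUMM2.1, and Sema3b at 1.33 FPKM, 60.1 FPKM and 23.2 FPKM in the same order.

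Among 11157 consecutive pairs of compared genes in the reference order, 23 pairs were both higher and 16 both lower, of which 6 pairs overlap. The kallikrein genes Klk10, Klk9 and Klk8 were consecutive and all lower. Klk9 had 0.0807 FPKM in YUMM1.7, 101 FPKM in YUMM1.1 and 23.7 FPKM in YUMM2.1. App, the amyloid precursor gene, lies next to Adamts1 and Adamts5 in this order and had 25.8 FPKM in YUMM1.7, 120 FPKM in YUMM1.1 and 144 FPKM in YUMM2.1. The near-identical pair Apol9a and Apol9b was higher, and reads of such copies can be shared. By chromosome, the highest share of higher genes was 4.39% on chromosome 8 and, among chromosomes with more than 4 genes compared, the highest share of lower genes was 3.85% on chromosome 10.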
